A study of Mus musculus with 32 samples.

Results

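The retinoic acid pathway was followed in E9.5 mouse brain through 10 genes that make, break down, sense or carry retinoic acid, namely Aldh1a2, Aldh1a3, Cyp26a1, Cyp26b1, Cyp26c1, Rara, Rarb, Rarg, Crabp1 and Crabp2. They were matched by Ensembl identifier to the FPKM tables, which list 48576 identifiers, and all 10 were present. FPKM is the number of sequenced fragments per kilobase of transcript, scaled to the mapped fragments of the library. RNA came from the forebrain (Fb) and midbrain (Mb) of B6C3F1 embryos, in 32 libraries. Each tissue had 6 wild-type (WT) libraries from WT matings, and 4 TKO_Ex, 3 DKO_Ex and 3 DKO_CD libraries from matings of Cdh6/8/11 triple heterozygotes. The null alleles are small CRISPR/Cas9 deletions in the start-codon exons of these type II cadherins, which are cell adhesion proteins of the neuroepithelium. TKO_Ex embryos are labelled as lacking Cdh6, Cdh8 and Cdh11, and DKO_Ex embryos as lacking Cdh8 and Cdh11. Both names carry Ex for exencephaly, an open cranial neural tube. DKO_CD stands for cranial defect. Its sample labels name Cdh6 and Cdh8, whereas the study's methods define the group as Cdh8/11 mutants with an elongated midbrain but no exencephaly, so its genotype is uncertain here. How many embryos went into a library is not stated.

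Retinoic acid is a small lipid signal made from vitamin A, and the Aldh1a enzymes carry out the last oxidation step. Cyp26 enzymes oxidise it further and clear it, so that sources and sinks shape its distribution along the embryo. In the nucleus it binds the receptors Rara, Rarb and Rarg, which sit on DNA together with retinoid X receptors, and in the cytoplasm it is carried by Crabp1 and Crabp2. In the early head it is known for its part in eye, face and hindbrain development.

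Rarb and Cyp26a1 are textbook retinoic acid targets as well as pathway components. The DNA just before their start sites is shown because they were the only 2 of the 8 genes searched that held the repeat described here. Both had a lower mean in Mb than in Fb of WT embryos, as did the others of the 10 genes except Cyp26c1. The 250 bases before the RefSeq start site on GRCm38.p6 are written on the gene's strand, with a direct repeat of a receptor half-site, 5 bases apart, in capitals. The Rarb stretch is chr14:16575477-16575726 on the minus strand, and the Cyp26a1 stretch is chr19:37697558-37697807 on the plus strand.
Rarb: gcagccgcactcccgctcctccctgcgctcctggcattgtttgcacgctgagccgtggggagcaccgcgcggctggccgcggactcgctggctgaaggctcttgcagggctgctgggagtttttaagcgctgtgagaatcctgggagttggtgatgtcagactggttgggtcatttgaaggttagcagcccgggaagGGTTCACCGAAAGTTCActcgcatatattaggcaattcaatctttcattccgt
Cyp26a1: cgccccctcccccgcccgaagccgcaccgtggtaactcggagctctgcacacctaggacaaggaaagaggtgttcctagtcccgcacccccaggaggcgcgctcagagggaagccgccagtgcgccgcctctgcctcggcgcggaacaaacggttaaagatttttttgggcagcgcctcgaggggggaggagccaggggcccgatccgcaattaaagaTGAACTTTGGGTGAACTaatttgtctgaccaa
The start site used for Rarb lies inside the span of the gene (chr14:16430839-16819156, minus strand), whereas its FPKM is given for the whole gene. The Rarb repeat (chr14:16575513-16575529) lies 37 bases before the start site. The Cyp26a1 repeat (chr19:37697776-37697792) lies 16 bases before it and reads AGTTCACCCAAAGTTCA on the opposite strand. The search took the 4 half-sites AGGTCA, then AGTTCA, then GGGTCA and finally GGTTCA, in any combination, in direct repeats spaced 1, 2 or 5 bases apart, on both strands, from 250 bases before to 50 bases after each start. Such a repeat with a spacing of 5 was present in 0.115% of the 27025 genes whose windows were searched, and one of any of these spacings in 0.688%. The windows searched did not cover every chromosome. Windows were held for 8 of the 10 genes, and 2 of the 8 contained a repeat. Aldh1a3 and Crabp2 were not among the 8. A match describes the letters only.

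Depth, read from the step size of low FPKM values, was estimated at 1.95 M to 3.25 M fragments per library, so that a gene near 1 FPKM rested on few fragments. For 12 DKO libraries the heading of the value column and the listing record disagree on whether the library is DKO_Ex or DKO_CD. Headings were followed, and the pooled comparison of all mutants with WT does not depend on that choice. Cdh6 was 1.84, 0.766 and 0.572 FPKM in TKO_Ex Fb replicates 1, 2 and 4, but 3.74 FPKM in the library labelled TKO_Ex Fb replicate 3, and it was likewise 3.10 FPKM in the library labelled TKO_Ex Mb replicate 3 against 0.345 to 0.388 FPKM in the other 3. WT had 2.04 to 3.997 FPKM in Fb and 1.04 to 3.55 FPKM in Mb, and DKO_CD 1.72 to 3.43 FPKM and 1.29 to 2.11 FPKM. A deletion of part of an exon need not lower a transcript, and this check bears on Cdh6 alone. The regional markers Six3, Lhx2, Nkx2-1, Fezf2 and Pax6 were higher in WT Fb, and Pax7, Pax5, Wnt1, En1 and En2 in WT Mb. Pax6 did not separate the libraries. It ran from 46.5 to 65.9 FPKM in WT Fb and from 6.83 to 52.7 FPKM in WT Mb. Its WT Mb maximum was in replicate 5, and replicate 3 followed at 45.9 FPKM. In WT Mb replicate 5 the midbrain gene En1 was only 3.57 FPKM against 32.0 to 59.0 FPKM in the other 5, and the results it moved most are also given without it. The summed FPKM of the primitive red cell markers ran from 2393 to 21473 in WT Fb and from 3601 to 14294 in mutant Fb. Nothing states that replicates were separate litters or dissections, so p-values measure the spread between these libraries. In bulk tissue, fewer cells of a type and less RNA per cell cannot be told apart.

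Levels are compared between genes as FPKM, which is per transcript length. In WT Fb the mean FPKM ± SD (n = 6) was 691 ± 55.8 for Crabp1, 438 ± 17.0 for Crabp2, 50.1 ± 8.58 for Aldh1a3, 17.5 ± 1.54 for Rarg, 7.94 ± 1.37 for Rara and 4.37 ± 1.05 for Rarb, and the ranges of these 6 genes did not overlap. Cyp26a1 followed at 1.09 ± 0.40 FPKM, and its lowest libraries reached into the range of Cyp26b1 at 0.452 ± 0.235 FPKM. Aldh1a2 at 0.374 ± 0.204 FPKM and Cyp26c1 at 0.123 ± 0.137 FPKM were at the bottom, with overlapping ranges and about 0 to 3 fragments per library. In WT Mb the order was the same for the binding proteins, at 567 ± 81.1 and 412 ± 50.5 FPKM. Below them the ranges of Rarg (5.53 ± 1.74 FPKM), Rara (5.45 ± 2.07 FPKM) and Aldh1a3 (1.69 ± 2.75 FPKM) overlapped. The plot of the 10 genes by library shows these levels side by side with the mutant groups.

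**Figure D1:**
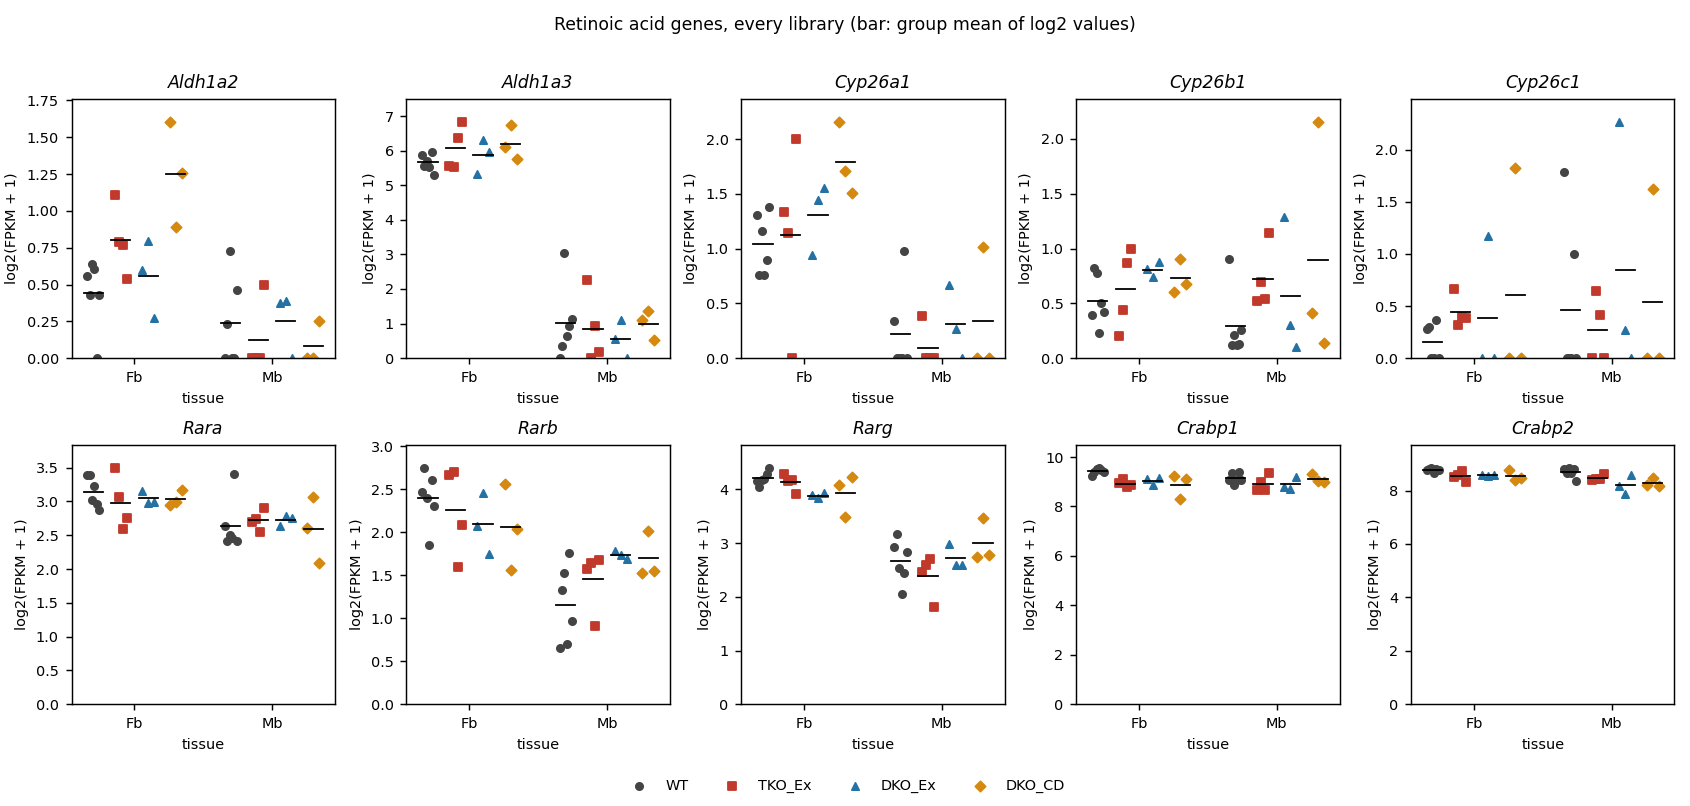
Level of each of the 10 genes as log2(FPKM + 1) in every library, Fb on the left and Mb on the right of each panel, with WT in grey circles, TKO_Ex in red squares, DKO_Ex in blue triangles and DKO_CD in orange diamonds, and a bar at each group's mean. Every Fb library had at least 38.3 FPKM of Aldh1a3 and every Mb library at most 7.23 FPKM, while Crabp1 and Crabp2 were high in all 32 libraries.

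The comparison of WT Mb with WT Fb asked which pathway components differ between the neighbouring brain regions. It was tested with limma on log2(FPKM + 1) over the 13344 genes that averaged at least 1 FPKM, and 8.26% of them passed an adjusted p of 0.05, with 3.6% of the tested genes lower in Mb. Of the 10 genes, 6 were above the filter, and 3 of these 6 were called, all lower in Mb. They were Aldh1a3, Rarg and Rarb, the same 3 whose WT Fb and WT Mb libraries did not overlap. Across all tested genes, 2.23% were lower in Mb with no overlap. The median difference of the 6 genes was -0.87 on the log2 scale, and that of all tested genes was -0.00332. Fold changes on the log2(FPKM + 1) scale understate the change of low genes.

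Among the enzymes of synthesis, Aldh1a3 (ENSMUSG00000015134, chr7:66390890-66427517, minus strand), which makes retinoic acid in the optic and nasal region of the early head, was the gene that differed most. Its FPKM in WT Fb was lowest at 38.3, with a median of 48.5 and a highest value of 61.5, and in WT Mb these were 0, 0.737 and 7.23. No Mb library reached any Fb library, and only WT Mb replicate 3 exceeded 1.17 FPKM. The mean was 29.6-fold lower in Mb, with a log2 difference of -4.64 ± 0.40 (SE, limma adjusted p = 4.89e-06). Without WT Mb replicate 3 the Mb mean was 0.587 FPKM, 85.4-fold lower than in Fb, and the log2 difference was -5.05 ± 0.20 (SE, limma adjusted p = 8.75e-09). Without WT Mb replicate 5 the log2 difference was -4.62. Optic vesicle and surface ectoderm genes followed the same direction in these libraries. All 4 tested optic vesicle markers (Rax, Six6, Vax2 and Mitf) and all 4 tested surface ectoderm and placode markers (Dlx5, Epcam, Krt18 and Krt8) were lower in Mb. The summed surface ectoderm and placode markers ran from 59.6 to 103 FPKM in WT Fb and from 21.5 to 34.3 FPKM in WT Mb, and the summed optic vesicle markers from 14.6 to 34.6 FPKM and from 0.302 to 1.14 FPKM. The part of such tissue in the Aldh1a3 difference was not tested.

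Aldh1a2 (ENSMUSG00000013584, chr9:71215789-71296243, plus strand), the main retinoic acid enzyme of trunk mesoderm, was close to absent in both regions. WT Fb libraries had a lowest value of 0, a median of 0.409 and a highest value of 0.560 FPKM, and WT Mb libraries 0, 0.0878 and 0.652 FPKM. The regions overlapped. In the fit without a filter the log2 difference was -0.21 ± 0.15 (SE, limma adjusted p = 0.582). Only 3 of the 32 libraries, described with the mutants below, had at least 1 FPKM.

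The clearing enzymes were all low. Cyp26a1 (ENSMUSG00000024987, chr19:37697798-37701536, plus strand), the Cyp26 gene most widely used as a retinoic acid response marker, had a lowest value of 0.689, a median of 1.05 and a highest value of 1.60 FPKM in WT Fb, about 4 to 9 fragments per library. In WT Mb it was listed at 0 in 4 of 6 libraries and reached 0.975 FPKM in WT Mb replicate 5 alone. That library was the only one within the Fb range. The gene missed the filter, and in the fit of all listed genes its log2 difference was -0.82 ± 0.19 (SE, limma adjusted p = 0.0261). Cyp26b1 (ENSMUSG00000063415, chr6:84571414-84593908, minus strand), which clears retinoic acid in hindbrain and limb, ran from 0.171 over 0.377 to 0.765 FPKM in WT Fb and from 0.0895 over 0.126 to 0.873 FPKM in WT Mb, as lowest, median and highest. Its regions overlapped, and WT Mb replicate 1 alone held the Mb maximum. Without a filter its log2 difference was -0.23 ± 0.15 (SE, limma adjusted p = 0.523).

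Cyp26c1 (ENSMUSG00000062432, chr19:37685581-37693398, plus strand), which also clears retinoic acid in the head and hindbrain, ends 4400 bases before Cyp26a1 starts. It was listed at 0 in 3 of 6 WT Fb libraries, with a maximum of 0.291 FPKM, and in 4 of 6 WT Mb libraries, where WT Mb replicates 1 and 5 had 2.45 and 0.993 FPKM. Without a filter its log2 difference was 0.31 ± 0.29 (SE, limma adjusted p = 0.663). The signal came in single libraries. Over all 16 Mb libraries of the study the 3 highest Cyp26c1 values, 2.45 FPKM in WT replicate 1, 3.80 FPKM in DKO_Ex replicate 1 and 2.09 FPKM in DKO_CD replicate 2, fell in the only 3 that held any Hoxa2, a hindbrain gene. Hoxa2 was 0.802, 0.392 and 1.28 FPKM there. Cyp26c1 in the other 13 ran from 0 to 0.993 FPKM and was listed at 0 in 9. The same 3 held 0.873 to 3.45 FPKM of Cyp26b1. The other 13 held 0.0750 to 1.21 FPKM of it, so the ranges overlapped, with TKO_Ex Mb replicate 4 above WT Mb replicate 1. In Fb, DKO_CD replicate 2 had 2.54 FPKM of Cyp26c1 and 1.36 FPKM of Hoxa2, DKO_Ex replicate 2 had 1.25 FPKM of Cyp26c1 with Hoxa2 listed at 0, and WT replicate 4 had 0.231 FPKM of Hoxa2 with Cyp26c1 listed at 0. Of the hindbrain markers, Hoxb1 was listed at 0 in every library, and the summed 6 markers ran from 1.61 to 19.1 FPKM in WT Mb and from 0.637 to 2.12 FPKM in WT Fb. The part of hindbrain tissue in the Cyp26b1 and Cyp26c1 values was not tested.

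The receptors were all lower in WT Mb by mean, to unequal degrees. Rarg (ENSMUSG00000001288, chr15:102234938-102257517, minus strand), the receptor typical of mesenchyme and unsegmented tissue, had a lowest value of 15.5, a median of 17.2 and a highest value of 19.97 FPKM in WT Fb, against 3.14, 5.47 and 8.03 FPKM in WT Mb. The regions were separate, with a 3.17-fold lower mean in Mb and a log2 difference of -1.55 ± 0.16 (SE, limma adjusted p = 3.34e-05). Rarb (ENSMUSG00000017491, chr14:16430839-16819156, minus strand), the receptor that is itself induced by retinoic acid, had 2.62, 4.42 and 5.70 FPKM in WT Fb and 0.577, 1.24 and 2.37 FPKM in WT Mb, as lowest, median and highest. It too showed no overlap, with a 3.3-fold lower mean in Mb and a log2 difference of -1.24 ± 0.22 (SE, limma adjusted p = 0.00235). Rara (ENSMUSG00000037992, chr11:98927818-98974942, plus strand), the most evenly expressed receptor, had 6.35, 7.76 and 9.54 FPKM in WT Fb and 4.33, 4.59 and 9.62 FPKM in WT Mb. Of its 6 Mb libraries 5 lay below every Fb library, and WT Mb replicate 5 lay above all of them. Its log2 difference of -0.51 ± 0.17 (SE) missed the threshold (limma adjusted p = 0.105). Without that library it was -0.66 ± 0.12 (SE) and passed (limma adjusted p = 0.00491).

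Rarg went with the mesenchymal genes of the libraries. The 6 cranial mesenchyme markers, Twist1, Prrx1, Prrx2, Foxc1 and Col1a2 among them, summed to 151 to 183 FPKM in WT Fb and to 64.0 to 108 FPKM in WT Mb, and 5 of the 6 were called lower in Mb. Prrx1 differed by -1.70, Col1a2 by -1.20, Twist1 by -1.08 and Foxc1 by -0.98 on the log2 scale. Over the 32 libraries, with each tissue's mean removed, the genes most like Rarg were Cnn2, Twist1 and Foxc1, with Pearson r of 0.81, 0.73 and 0.72. These libraries share tissue dissection and depth, and the values are a description. The part of mesenchyme in the Rarg difference was not tested. Rarb was most like Ednra (r = 0.62), Dixdc1 (r = 0.61) and Gabbr1 (r = 0.61), and Rara most like Sec24a (r = 0.64) and Filip1 (r = 0.62). Aldh1a3 was most like Stk26 (r = 0.63), Gm47297 (r = 0.62) and Adgra3 (r = 0.61).

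**Figure D2:**
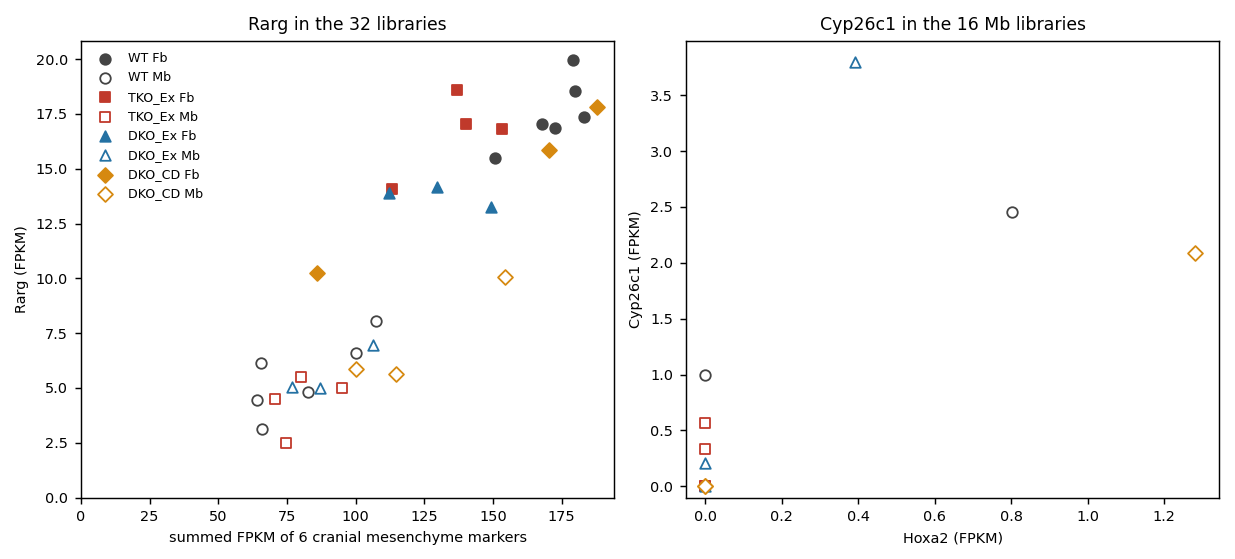
Left, Rarg FPKM against the summed FPKM of 6 cranial mesenchyme markers in 32 libraries, filled symbols for Fb and open symbols for Mb, with genotypes by shape and colour as in the key. Right, Cyp26c1 FPKM against Hoxa2 FPKM in the 16 Mb libraries with the same symbols, where the 3 libraries with Hoxa2 above 0 also have the 3 highest Cyp26c1 values.

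The cytoplasmic binding proteins were abundant in both regions. Crabp1 (ENSMUSG00000032291, chr9:54764748-54773110, plus strand), thought to hold or help break down retinoic acid, had 595, 698 and 745 FPKM in WT Fb and 468, 536 and 678 FPKM in WT Mb, as lowest, median and highest. Of its 6 Mb libraries 4 were below every Fb library. The log2 difference was -0.29 ± 0.09 (SE) and missed the threshold (limma adjusted p = 0.0753). It passed when WT Fb replicate 1, WT Mb replicate 2 or WT Mb replicate 5 was left out (adjusted p = 0.0496, 0.0479 and 0.0321). Crabp2 (ENSMUSG00000004885, chr3:87948666-87953376, plus strand), which delivers retinoic acid to its receptors, had 406, 443 and 453 FPKM in WT Fb and 324, 422 and 454 FPKM in WT Mb. The regions overlapped, with a log2 difference of -0.10 ± 0.08 (SE, limma adjusted p = 0.558). The 95% interval of that difference ran from -0.27 to 0.08. Over the 32 libraries with tissue means removed, Crabp1 was most like Adprh (r = 0.72), Gja5 (r = 0.70) and Tbx2 (r = 0.67), and Crabp2 most like Gm13408 (r = 0.71), Rex1bd (r = 0.70) and Rps3a2 (r = 0.69).

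The wider pathway showed few differences between WT Mb and WT Fb. Of 14 genes of retinoid supply, which bring vitamin A into the cell and convert it to retinaldehyde, 10 passed the filter and 1 was called, lower in Mb. Of 13 partner receptors and coregulators, 12 passed the filter and 1, the corepressor Nrip1, was called, higher in Mb by 0.35 ± 0.09 (SE) on the log2 scale (limma adjusted p = 0.0348). Of 20 textbook retinoic acid targets, only 8 passed the filter, and Rarb was the 1 called. This list includes Rarb and Cyp26a1 of the 10 genes, so that call is the Rarb result given above. The median differences of the 3 lists were 0.02, 0.10 and -0.09. Among the other markers, 5 of 5 tested neuron markers were called higher in Mb, 2 of 5 neural crest markers (Erbb3 and Tfap2a) lower, 1 of 2 hindbrain markers (Gbx2) higher, and none of the 4 endothelium or 4 primitive red cell markers was called by limma.

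The same contrast was then taken within each mutant group, as comparisons added after the first results, where 4 against 4 or 3 against 3 libraries gave fewer calls overall. In TKO_Ex, 2 of the 6 tested genes were called, both lower in Mb, beside 2.89% of all tested genes. In DKO_Ex, 2 of 6 were called beside 2.58%, and in DKO_CD, 1 of 7 beside 0.507%. Groups without overlap, lower in Mb, were seen in 2, 3 and 3 of these genes and in 4.27%, 7.86% and 8.21% of all tested genes in TKO_Ex, DKO_Ex and DKO_CD.

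Aldh1a3 was lower in Mb in every genotype. In TKO_Ex it was 45.6, 44.8, 82.2 and 112 FPKM in Fb and 3.81, 0, 0.903 and 0.128 FPKM in Mb (log2 difference -5.22 ± 0.51 (SE), limma adjusted p = 0.00077). In DKO_Ex it was 39.4, 78.1 and 60.9 FPKM in Fb and 0.482, 1.15 and 0 FPKM in Mb (-5.31 ± 0.34, limma adjusted p = 0.000806). In DKO_CD it was 67.9, 106 and 52.7 FPKM in Fb and 1.14, 1.57 and 0.432 FPKM in Mb (-5.21 ± 0.32, limma adjusted p = 0.00092). No Mb library of any genotype came near an Fb library.

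Rarg also kept its direction, and all 16 Fb libraries (10.3 to 19.97 FPKM) were above all 16 Mb libraries (2.49 to 10.1 FPKM). In TKO_Ex it was 18.6, 16.8, 17.1 and 14.1 FPKM in Fb and 4.49, 5.02, 5.50 and 2.49 FPKM in Mb (log2 difference -1.75 ± 0.20 (SE), limma adjusted p = 0.0022). In DKO_Ex it was 13.9, 13.3 and 14.2 FPKM in Fb and 6.95, 5.02 and 5.02 FPKM in Mb (-1.16 ± 0.16, limma adjusted p = 0.0138), a call that was lost in 5 of the 6 fits that left out 1 library (limma adjusted p from 0.0531 to 0.0623). In DKO_CD it was 15.8, 10.3 and 17.8 FPKM in Fb and 5.65, 10.1 and 5.87 FPKM in Mb (-0.94 ± 0.28, limma adjusted p = 0.301), not called. With libraries grouped by record instead of heading, the DKO_Ex and DKO_CD values change places. In DKO_CD replicate 2 the Fb value was the lowest and the Mb value the highest of all genotypes. The summed mesenchyme markers of these 2 libraries, 86.0 and 154 FPKM, were likewise the lowest of all Fb and the highest of all Mb libraries.

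The low genes gave no call, and their order of regions by mean was mixed. Cyp26a1 and Aldh1a2 had a lower mean in Mb in each mutant group. In the fits without a filter, Cyp26a1 differed by -1.02 in TKO_Ex (limma adjusted p = 0.361) and -0.998 in DKO_Ex (limma adjusted p = 0.192), and in DKO_CD, where it passed the filter, by -1.45 (limma adjusted p = 0.245). Aldh1a2 differed by -0.68, -0.30 and -1.16 (limma adjusted p = 0.13, 0.637 and 0.183). Cyp26b1, which had a lower mean in WT Mb, had a higher mean in Mb of TKO_Ex (0.678 FPKM against 0.582 FPKM in Fb) and of DKO_CD (1.29 against 0.663 FPKM). Cyp26c1, which had a higher mean in WT Mb, had a lower mean in Mb of TKO_Ex (0.225 against 0.363 FPKM) and of DKO_CD (0.696 against 0.846 FPKM).

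Rarb was not called in any mutant group. Its Fb and Mb libraries overlapped in each, with log2 differences of -0.81 ± 0.30, -0.36 ± 0.24 and -0.36 ± 0.31 (SE) in TKO_Ex, DKO_Ex and DKO_CD (limma adjusted p = 0.281, 0.59 and 0.789). Whether the tissue difference itself changed with genotype was tested as an interaction. None of the tested genes was called there in TKO_Ex, DKO_Ex or DKO_CD, beside 0.0149%, 0% and 0.00746% of all genes. For Rarb the interaction was 0.43 ± 0.37, 0.88 ± 0.35 and 0.88 ± 0.38 (SE) on the log2 scale, with limma adjusted p of 0.89, 0.9996 and 0.99. At an unadjusted p under 0.05, limma gave 0, 1 and 2 of the 6 genes (Rarb in DKO_Ex, Rarb and Crabp1 in DKO_CD), beside 6.5%, 3.88% and 4.83% of all genes. The 3 interactions share the WT libraries.

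**Figure D3:**
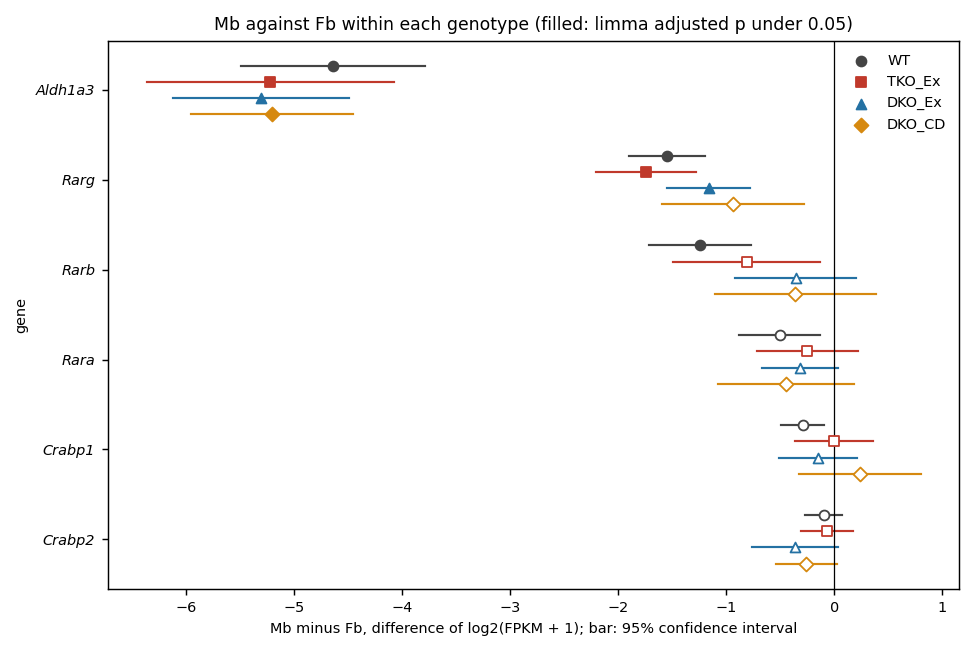
Difference of log2(FPKM + 1), Mb minus Fb, for the 6 genes tested in all genotypes, with 95% confidence intervals, WT as grey circles, TKO_Ex as red squares, DKO_Ex as blue triangles and DKO_CD as orange diamonds. Filled symbols passed a limma adjusted p of 0.05, and these were Aldh1a3 in all 4 genotypes, Rarg in WT, TKO_Ex and DKO_Ex, and Rarb in WT.

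The comparison of each mutant group with WT asked whether levels of the pathway genes differed between them. WT embryos came from WT matings and all mutants from matings of triple heterozygotes. An effect of cadherin loss therefore cannot be told apart from a difference of mating, line or litter. No gene of the 10 was called by limma in any of the 6 comparisons, 3 groups in each of 2 tissues. The background was as sparse. In Fb, 0.0603%, 0.0759% and 0.0378% of all tested genes were called in TKO_Ex, DKO_Ex and DKO_CD, and in Mb 0.0898%, 0.0903% and 0.0375%. At an unadjusted p under 0.05 the Fb comparisons gave 2, 3 and 4 of 7 tested genes, beside 8.66%, 7.01% and 8.44% of all genes. The Mb comparisons gave 0, 1 and 1 of 6, beside 8.38%, 5.46% and 6.69%. The comparisons within a tissue share their 6 WT libraries. The smallest adjusted p over all of them was 0.104, for Crabp1 in TKO_Ex Fb.

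Crabp1 was the gene nearest to a call. Against 595 to 745 FPKM in WT Fb, it was 498, 547, 437 and 472 FPKM in TKO_Ex, 552, 464 and 574 FPKM in DKO_Ex, and 602, 317 and 551 FPKM in DKO_CD. Of the 10 mutant Fb libraries, 9 lay below every WT Fb library and DKO_CD replicate 1 lay just within the range. In TKO_Ex and in DKO_Ex the groups did not overlap, as for 0.814% and 2.25% of all tested genes in that direction. The log2 differences were -0.50 ± 0.08, -0.38 ± 0.09 and -0.55 ± 0.17 (SE), with limma adjusted p of 0.104, 0.284 and 0.455. Without the library labelled TKO_Ex Fb replicate 3 the TKO_Ex difference was -0.45 ± 0.09 (SE, limma adjusted p = 0.192). With the 10 mutant libraries pooled, a comparison added after the first results, the log2 difference was -0.48 ± 0.11 (SE, limma adjusted p = 0.116), beside 0.203% of all genes called. In that pooled comparison 2 of 7 genes, Crabp1 and Crabp2, had an unadjusted p under 0.05, beside 9.1% of all genes. Without DKO_CD Fb replicate 2, the lowest library, the pooled difference was -0.41 ± 0.08 (SE) and passed (limma adjusted p = 0.0392). In Mb, WT ran from 468 to 678 FPKM and the mutants from 402 to 663 FPKM, with log2 differences of -0.21 ± 0.15, -0.24 ± 0.15 and -0.02 ± 0.13 (SE) in TKO_Ex, DKO_Ex and DKO_CD.

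Crabp2 had a lower mean than WT in each mutant group of both tissues, without a call. In Fb, against 406 to 453 FPKM in WT, it was 363, 385, 427 and 315 FPKM in TKO_Ex, 387, 372 and 380 FPKM in DKO_Ex, and 431, 339 and 353 FPKM in DKO_CD. Of the 10 mutant Fb libraries 8 were below every WT library, a count for which no share of all genes is given here. DKO_Ex lay wholly below WT, as did 2.25% of all tested genes, and TKO_Ex and DKO_CD overlapped WT. The log2 differences were -0.24 ± 0.08, -0.21 ± 0.06 and -0.23 ± 0.08 (SE, limma adjusted p = 0.436, 0.381 and 0.484). In Mb, against 324 to 454 FPKM in WT, it was 332, 341, 345 and 397 FPKM in TKO_Ex, 285, 236 and 384 FPKM in DKO_Ex, and 296, 349 and 290 FPKM in DKO_CD. These groups overlapped in each case, with log2 differences of -0.21 ± 0.10, -0.47 ± 0.16 and -0.40 ± 0.12 (SE, limma adjusted p = 0.618, 0.788 and 0.536). In the pooled Mb comparison, where 0.127% of all genes were called and none of the 6 tested here, Crabp2 differed by -0.34 ± 0.10 (SE, limma adjusted p = 0.363). There Crabp2 and Rarb were the 2 of 6 with an unadjusted p under 0.05, beside 7.59% of all genes.

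**Figure D4:**
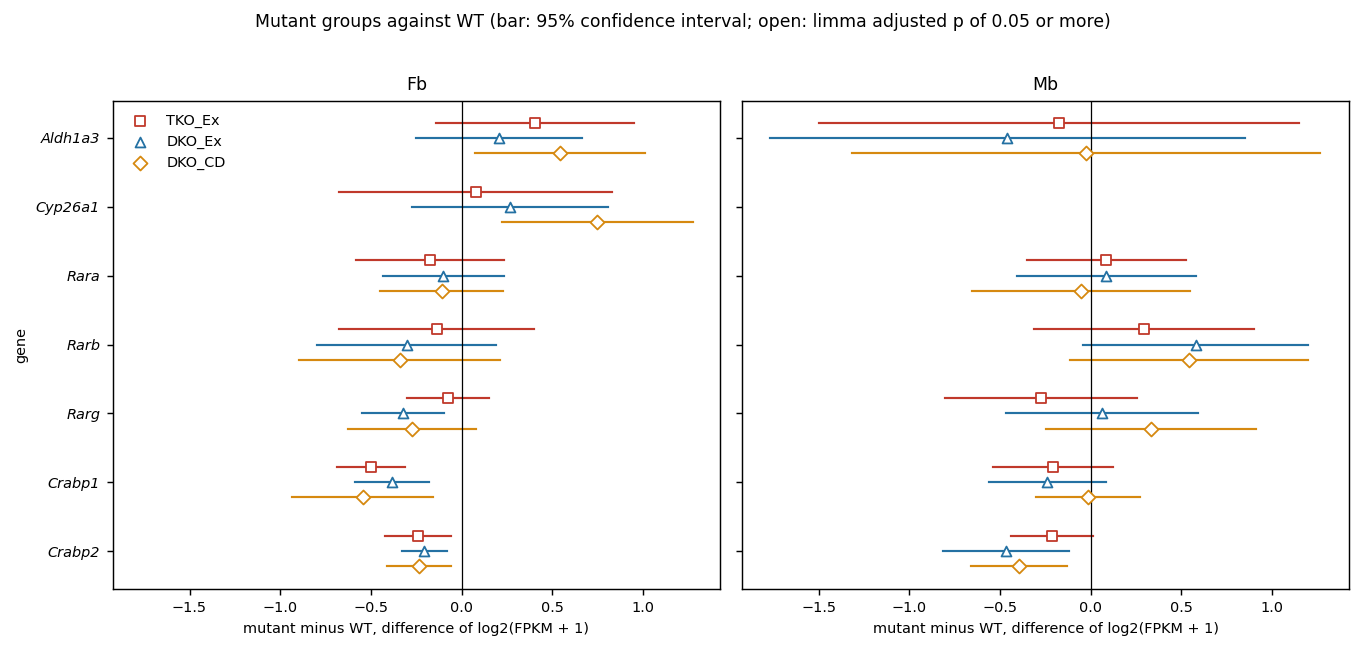
Difference of log2(FPKM + 1), mutant minus WT, for each tested gene in Fb (left) and Mb (right), with 95% confidence intervals, TKO_Ex as red squares, DKO_Ex as blue triangles and DKO_CD as orange diamonds. All symbols are open because no limma adjusted p was under 0.05, and Cyp26a1 is absent on the right because it was below the filter in Mb. The Crabp1 and Crabp2 intervals in Fb lie below 0 in the 3 mutant groups.

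Aldh1a3, Aldh1a2 and Cyp26a1 had higher means in mutant Fb than in WT Fb, without a call. Against 38.3 to 61.5 FPKM in WT Fb, 5 of the 10 mutant Fb libraries had more Aldh1a3 than any WT library (values above), and each mutant group overlapped WT. The log2 differences were 0.41 ± 0.25, 0.21 ± 0.21 and 0.54 ± 0.21 (SE) in TKO_Ex, DKO_Ex and DKO_CD (limma adjusted p = 0.674, 0.891 and 0.545), none called. Cyp26a1 was 1.53, 1.21, 0 and 3.01 FPKM in TKO_Ex Fb, 0.917, 1.71 and 1.93 FPKM in DKO_Ex Fb, and 3.45, 2.27 and 1.85 FPKM in DKO_CD Fb, against 0.689 to 1.60 FPKM in WT Fb. The value listed at 0 is the library labelled TKO_Ex replicate 3. Only DKO_CD lay wholly above WT, as did 2.92% of all tested genes, with a log2 difference of 0.75 ± 0.24 (SE, limma adjusted p = 0.447) on about 10 to 18 fragments a library. Aldh1a2, below the filter, was 2.03, 0.852 and 1.39 FPKM in DKO_CD Fb, about 5 to 12 fragments, and lay above the WT maximum of 0.560 FPKM in all 3. In the fit without a filter its log2 difference was 0.81 (limma adjusted p = 0.421). The third library at or above 1 FPKM of Aldh1a2 was TKO_Ex Fb replicate 1 at 1.16 FPKM. Cyp26b1 and Cyp26c1 overlapped WT in each mutant comparison.

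The mutant Fb libraries that stood out in Aldh1a3 and Crabp1 were the same ones. The summed surface ectoderm and placode markers (Krt8, Krt18, Epcam, Trp63, Grhl3 and Dlx5) reached 166 to 238 FPKM in TKO_Ex replicates 3 and 4, DKO_Ex replicate 2 and DKO_CD replicate 2, against 59.6 to 108 FPKM in the other 12 Fb libraries. These 4 held the 4 highest Aldh1a3 values, 78.1 to 112 FPKM, and the 4 lowest Crabp1 values, 317 to 472 FPKM, of the 16. In the 6 other mutant Fb libraries Aldh1a3 was 39.4 to 67.9 FPKM, with 1 above every WT library. Crabp1 in those 6 was 498 to 602 FPKM, with 5 below every WT library, and Crabp2 was 353 to 431 FPKM, also with 5 below every WT library. No surface ectoderm marker was called in a mutant comparison in Fb, where the median differences of the list were 0.59, 0.41 and 0.49 in TKO_Ex, DKO_Ex and DKO_CD and those of all genes were 0.02, -0.01 and 0.04. The part of surface ectoderm in the Aldh1a3 and Crabp1 values was not tested.

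**Figure D5:**
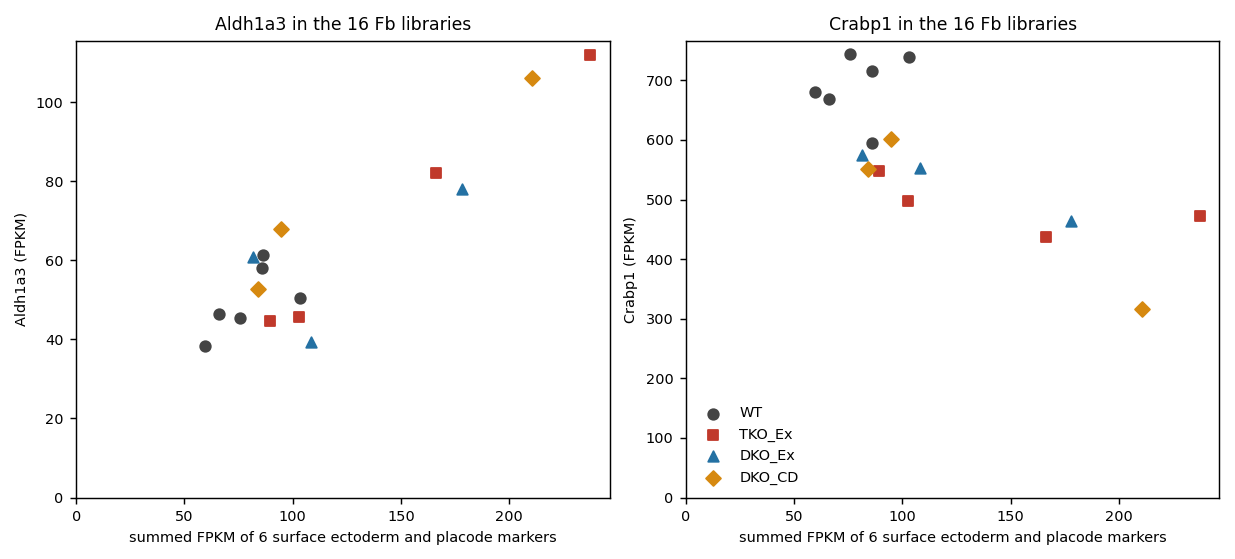
Aldh1a3 FPKM (left) and Crabp1 FPKM (right) in the 16 Fb libraries against the summed FPKM of 6 surface ectoderm and placode markers, with WT as grey circles, TKO_Ex as red squares, DKO_Ex as blue triangles and DKO_CD as orange diamonds. The 4 libraries with sums of 166 to 238 FPKM have the highest Aldh1a3 and the lowest Crabp1, and 5 of the 6 other mutant libraries still lie below all WT libraries in Crabp1.

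The receptors gave no call against WT. Rarg in DKO_Ex Fb (13.3 to 14.2 FPKM) lay below every WT Fb library (15.5 to 19.97 FPKM), with a log2 difference of -0.32 ± 0.10 (SE, limma adjusted p = 0.479). In that comparison 2.25% of all tested genes were lower with no overlap. The summed cranial mesenchyme markers of these 3 DKO_Ex libraries, 112 to 149 FPKM, were also below every WT Fb library, as they were in 7 of the 10 mutant Fb libraries. Among the 7, TKO_Ex replicates 1 and 3 had Rarg inside the WT range, at 18.6 and 17.1 FPKM. TKO_Ex replicate 4 and DKO_CD replicate 2 had it below that range, at 14.1 and 10.3 FPKM. The part of mesenchyme in these Rarg values was not tested. Rarb in Mb was 2.45, 2.33 and 2.22 FPKM in DKO_Ex and 1.87, 3.05 and 1.93 FPKM in DKO_CD. WT Mb ran from 0.577 to 2.37 FPKM, with the maximum in replicate 5, and DKO_Ex replicate 1 and DKO_CD replicate 2 were above it. In TKO_Ex Mb it was 1.99, 2.11, 0.881 and 2.21 FPKM. The pooled difference was 0.45 ± 0.19 (SE, limma adjusted p = 0.591). Without WT Mb replicate 5 the WT maximum was 1.88 FPKM, the 3 DKO_Ex libraries were all above it, and the Rarb differences were 0.41 ± 0.27 in TKO_Ex, 0.70 ± 0.26 in DKO_Ex, 0.66 ± 0.28 in DKO_CD and 0.57 ± 0.19 pooled (SE, limma adjusted p = 0.809, 0.916, 0.821 and 0.526), none called. In those fits 0, 2 and 2 of the 6 genes in TKO_Ex, DKO_Ex and DKO_CD had an unadjusted p under 0.05. For those fits the shares of all genes with such a p, or without overlap, are not given here. These counts and the missing overlap are therefore a description only. Rara in Mb lay at 4.87 to 6.51 FPKM in TKO_Ex, 5.19 to 5.90 FPKM in DKO_Ex and 3.25 to 7.37 FPKM in DKO_CD, inside or close to the WT range, with log2 differences of 0.09, 0.08 and -0.05, the last of which was 0.10 without WT Mb replicate 5. Rara in Fb differed by -0.17, -0.10 and -0.11.

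In the wider pathway no gene of the 3 lists was called by limma in any mutant comparison with WT. In Fb, 10 supply genes were tested in each group, and 2, 3 and 0 of them had an unadjusted p under 0.05 in TKO_Ex, DKO_Ex and DKO_CD. For the partner receptors and coregulators these counts were 3 of 12, 1 of 11 and 0 of 12, and for the targets 1, 0 and 3 of 9, where 8.66%, 7.01% and 8.44% of all genes had one. The 3 targets in DKO_CD Fb include Cyp26a1, already counted among the 10 genes. In Mb they were 1 of 9, 0 of 10 and 1 of 10 for supply, 1, 0 and 0 of 12 for the partners, and 1, 1 and 0 of 7 for the targets, beside 8.38%, 5.46% and 6.69% of all genes. The list medians of supply, partners and targets were 0.06, 0.13 and 0.08 in TKO_Ex Fb beside 0.02 for all genes, -0.03, 0.01 and 0.04 in DKO_Ex Fb beside -0.01, and 0.07, 0.10 and 0.26 in DKO_CD Fb beside 0.04. In Mb they were 0.03, -0.03 and 0.19 in TKO_Ex beside 0.02, 0.01, 0.02 and 0.10 in DKO_Ex beside 0.03, and -0.09, 0.05 and 0.29 in DKO_CD beside 0.02.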

How the data were processed

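RNA from Fb and Mb of E9.5 embryos was sequenced as directional libraries, and the authors deposited FPKM per gene for each library. The submitters' processing notes name TopHat2, Cufflinks, HTSeq and DESeq2 and the builds GRCm38 and mm10, while versions and the annotation are not given in the sources used here. Of 48576 identifiers, 48132 were found in GENCODE M21, and 49 repeated identifiers were summed. Depth was estimated from the FPKM steps of 769 genes with at least 4000 exonic bases. Between 86.3% and 95.1% of their values came out whole within 0.15, so counts were not recovered for a test. Genes averaging at least 1 FPKM over a comparison's libraries were tested on log2(FPKM + 1) with limma 3.58.1 (lmFit, eBayes with trend, R 4.3.3), with Benjamini-Hochberg adjustment over all tested genes and a threshold of 0.05. The test was tried on simulated data first. The 10 genes and the gene lists were chosen with earlier results of these data known. Named genes were the 10, at most 5 called genes per list and comparison with the largest difference, the 3 most correlated genes of each, and Cdh6, Cdh8 and Cdh11. Pairs of same-numbered Fb and Mb libraries were not treated as pairs. Alternatives were another pseudocount, filter, scaling or grouping, a replicate block, and leaving out each library. Some called or correlated genes that this rule would name are not reported here.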

Additional observations from a re-analysis of the deposited data

Results flagged for a closer look

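Among the 40 groups of 4 or 6 libraries looked at, 7 held a value far from the rest of its group. The rule marks about 1 in 20 groups by chance where values are normally distributed. In WT Mb, Aldh1a3 was 7.23 FPKM in replicate 3 with the next value at 1.17 FPKM, and Cyp26b1 was 0.873 FPKM in replicate 1 with the next at 0.195 FPKM. WT Mb replicate 5 stood out for Rara, at 9.62 FPKM with the next at 5.20 FPKM, and for Cyp26a1, at 0.975 FPKM with the next at 0.268 FPKM. In TKO_Ex Mb, Aldh1a2 was 0.409 FPKM in replicate 4 and Cyp26a1 was 0.306 FPKM in replicate 1, with both genes listed at 0 in the other 3 libraries. In such a group any single value above 0 is marked, so the rate of 1 in 20 does not hold for this pair. It need not hold for other groups near 0, such as Cyp26a1 in WT Mb, listed at 0 in 4 of 6 libraries. The 7 of 40 are therefore not compared with that rate. Rarb was 0.881 FPKM in the library labelled TKO_Ex Mb replicate 3, with the next lowest at 1.99 FPKM.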

How the results depend on the processing

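Of 1901 alternative values of the members, 1800 kept direction and side of the threshold, with a shift under 1 SE where not called. A further 46, not called, also kept both but shifted by 1 SE or more. Of the rest, 7 passed the threshold newly, 6 no longer passed it and 42 changed sign. The sign changes fell on 17 results, none called, of at most 0.24 on the log2 scale, and their cause was not tested. With a pseudocount of 0.1, Cyp26a1 in TKO_Ex Fb was -0.33 (0.08 as reported) and Aldh1a3 in DKO_CD Mb 0.39 (-0.02). With the replicate block, Rarg was -0.15 in DKO_Ex Mb (0.06) and -0.14 in pooled Mb (0.01), and in DKO_CD Mb Rara was 0.070 (-0.05) and Crabp1 0.018 (-0.02). Median-of-ratios scaling put pooled Mb Rarg at -0.012. By record, Rara in Mb was -0.052 in DKO_Ex (0.08) and 0.085 in DKO_CD (-0.05), and Crabp1 between tissues 0.24 in DKO_Ex (-0.15) and -0.15 in DKO_CD (0.24). Leaving out 1 library gave these ranges against WT: in TKO_Ex, Aldh1a3 in Mb -0.65 to 0.11, Cyp26a1 in Fb -0.22 to 0.45 and Rarb in Fb -0.28 to 0.087. In DKO_Ex, Rarg in Mb ran from -0.073 to 0.16 and Aldh1a3 in Fb from -0.014 to 0.47. In DKO_CD Mb, Aldh1a3 ran from -0.23 to 0.21, Rara from -0.29 to 0.20 and Crabp1 from -0.12 to 0.041. In pooled Mb, Rara ran from -0.00080 to 0.20 and Rarg from -0.11 to 0.11. Between tissues, Crabp1 ran from -0.15 to 0.089 in TKO_Ex and from -0.052 to 0.41 in DKO_CD. The interaction ran from -0.048 to 0.097 for Crabp2 in TKO_Ex, from -0.013 to 0.24 for Crabp1 in DKO_Ex and from -0.18 to 0.31 for Rara in DKO_CD. In WT, 3 of the 10 genes were called. With at least 1 FPKM required in every library 1 was called, with no filter 4, and with 1 library left out 3 to 5, the 5 without WT Mb replicate 5. For all mutants against WT in Fb, leaving out 1 library gave 0 to 1 calls, the 1 being Crabp1 without DKO_CD Fb replicate 2. Between tissues, the filter in every library left 1 call in TKO_Ex, 1 in DKO_Ex and 0 in DKO_CD. Grouping DKO libraries by record gave 1 in DKO_Ex and 2 in DKO_CD, fitting all 8 groups together gave 2 in DKO_CD, and leaving out 1 DKO_Ex library gave 1 to 2. The cause of these changes was not tested beyond the fewer genes or libraries in each fit. Same-numbered Fb and Mb libraries correlated at 0.00756 to 0.14 after group means were removed, over 0.1 in 4 of 16 pairs, and 14 of 16 libraries correlated best with their own number. Against WT the block joined same-numbered mutant and WT libraries, which came from different matings. Those correlated at -0.086 to 0.049, so no pairing was seen for the block to use there. With the replicate block, 3 of the 10 genes were called in WT, 2 in TKO_Ex, 2 in DKO_Ex and 1 in DKO_CD between tissues, and 0 in the other comparisons, so the block changed no call of the 10. Depth limits Aldh1a2, Cyp26a1, Cyp26b1 and Cyp26c1, which rested on few fragments per library. Over all tested genes, the number called in WT was 1102, and 780 to 1317 over the alternatives. Against WT it was 12 (0 to 52) in TKO_Ex Mb, 8 (0 to 32) in TKO_Ex Fb, 12 (1 to 17) in DKO_Ex Mb, 10 (2 to 14) in DKO_Ex Fb, 5 (1 to 12) in DKO_CD Mb and 5 (2 to 15) in DKO_CD Fb.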
